A study of Mus musculus with 10 samples.

Results

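The proteasome genes were taken as the protein-coding genes of the GRCm39 annotation whose symbol begins with Psma, Psmb, Psmc, Psmd, Psme, Psmf or Psmg. Psmb8 and Psmb9, the other inducible catalytic subunits, were left out by the rule. There were 49 such genes in the annotation, and all 49 had a row among the 29883 genes of the count table. Of these, 47 encode subunits, activators, an inhibitor or assembly chaperones, and 2 (Psmc3ip and Psme3ip1) share only the prefix. RNA was sequenced from the nucleus accumbens (NAc) of 5 C57BL/6J (B6) and 5 DBA/2J (D2) mice, with 1 poly-A library per mouse. All mice were males from the Jackson Laboratory, aged 9 weeks, and had received no ethanol. The strains are inbred, so a strain difference cannot be assigned to 1 allele. Reads of both strains had been aligned to the B6 genome, which bears on every gene that differs in sequence between them.

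The proteasome is the large protease that breaks down proteins tagged with ubiquitin. Its barrel-shaped 20S core is built of outer rings of alpha subunits, which gate the entrance, and inner rings of beta subunits, of which Psmb5, Psmb6 and Psmb7 carry the active sites. The 19S particle caps the core, binds and unfolds the tagged protein, and is built of a base with a ring of ATPases and a lid. In neurons the proteasome takes part in synaptic plasticity through the turnover of synaptic proteins. Subunit genes are usually expressed in all cell types, and the transcription factor Nfe2l1 can raise most of them together.

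The libraries held 96977262 to 116776714 counted reads. Levels are given in CPM, the reads of a gene scaled to equal library size after TMM normalization. All 10 striatal neuron markers were measured, with summed levels of 5910 to 7370 CPM in B6 and 4860 to 5840 in D2. Of the 10, 7 were called lower in D2 (edgeR adjusted p under 0.05), against 9.83% of all genes. The oligodendrocyte markers (4 of 6 called lower in D2) ranged from 4290 to 6200 CPM in B6 and from 3240 to 4730 in D2. Of the blood markers 3 of 5 were called lower, and of the choroid plexus markers 1 of 5. Astrocytes had 2 of 6 markers lower and 1 higher, and microglia 1 of 6 lower and 1 higher. No marker of endothelium, ependyma or dividing cells was called. None of the 8 cortical neuron markers (summed levels of 157 to 1010 CPM in B6 and 309 to 670 in D2) passed the edgeR test. B6 replicates 3 and 5 stood apart in the mean log2 level of these markers, relative to the average of all 10 libraries. It was 1.12 and 1.13 in them, against -1.43 to -0.63 in the other B6 libraries and -0.36 to 0.50 in D2. They were also the most alike of all pairs of libraries of the same strain. Their counts gave a mean chi-square per gene of 4.89 over 15388 genes, against 17.5 to 118.9 for the other pairs. The part of these differences in tissue makeup in the results for proteasome genes was not tested, and values without those B6 libraries are given for the called genes. In that subset every B6 library lay below every D2 library in cortical marker level. Leaving them out therefore does not match the strains in tissue makeup. In bulk tissue, fewer cells of a type and less RNA per cell cannot be told apart.

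Reads of Psmb5 could not be separated by gene name alone. Psmb5 (ENSMUSG00000022193, chr14:54850776-54855481, minus strand, GRCm39) has a processed pseudogene, Gm3375 (ENSMUSG00000107470), an intronless copy on the plus strand of chr7 (matched stretch chr7:3230809-3231707). The copy matches the first 899 of the 1701 bases of the canonical Psmb5 transcript with 99.11% identity, including the whole coding stretch from base 34 to base 828. The 8 differences all fall in that coding stretch and are G39A, G139A, C330T, C339T, T420A, C450T, T498C and C693A, counted from 1 at the first base of the canonical transcript with the base of Psmb5 first and that of the copy last. The sequences around 4 of them are shown because such bases tell the copy from Psmb5. A read pair wholly within the matched stretch can be told apart in the B6 genome only if it covers such a base. Capitals mark the differing bases.
Psmb5, bases 330 and 339: gagatcaacccgtaCcttctgggCaccat
Gm3375, same stretch: gagatcaacccgtaTcttctgggTaccat
Psmb5, base 420: tatgagcttcgcaaTaaggaacgcatctc
Gm3375, same stretch: tatgagcttcgcaaAaaggaacgcatctc
Psmb5, base 693: cgccgagccatctaCcaagccacctacag
Gm3375, same stretch: cgccgagccatctaAcaagccacctacag
These bases of Psmb5 lie at 54854180, 54854171, 54854090 and 54851784 on chr14 of the B6 reference, and the copy holds no match to the rest of the Psmb5 transcript after base 899. Whether D2 mice carry the same bases at either locus is not given in the sources used here.

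Most proteasome genes differed little between the strains. Past an adjusted p of 0.05 (edgeR quasi-likelihood test, Benjamini-Hochberg over all 29883 genes), 6 of the 49 were called (12.2%), against 18.3% of all genes and 23.8% of those with a mean of at least 1 CPM. The rows of Psmb5, Psmb6 and Psma3, all of the 20S core, were lower in D2 (9.83% of all genes were). Psmb10, Psmg4 and Psmd1 were higher (8.5% of all genes were). With the reads of near-identical copies added, the split was 4 higher and 2 lower, since the sum of Psmb5 and Gm3375 was higher in D2 (log2 fold change 0.22). The median log2 fold change (D2 over B6) was 0.03 over the 49 genes and 0.00 over all genes tested, and the median absolute log2 fold change was 0.06 against 0.10 for genes with at least 1 CPM. The median standard error was 0.04 for the proteasome genes and 0.06 for those genes. For 36 of the 43 genes that were not called, the 95% interval of the log2 fold change lay within 0.25 of 0. The other 7 were Psmd9, Psmb11, Psma8, Psme1, Psme2b, Psmg3 and Psmc3ip. The values of the mice did not overlap between strains for 8 genes (16.3%, against 16.0% of all genes), namely the 6 called genes with Psmd12 and Psmd10. Without B6 replicates 3 and 5, 9 genes were called, the same 6 with Psma1, Psmd9 and Psmc3ip, all 3 lower in D2. Over all genes, 5745 were called without those libraries, against 5478 with all 10 mice.

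**Figure D1:**
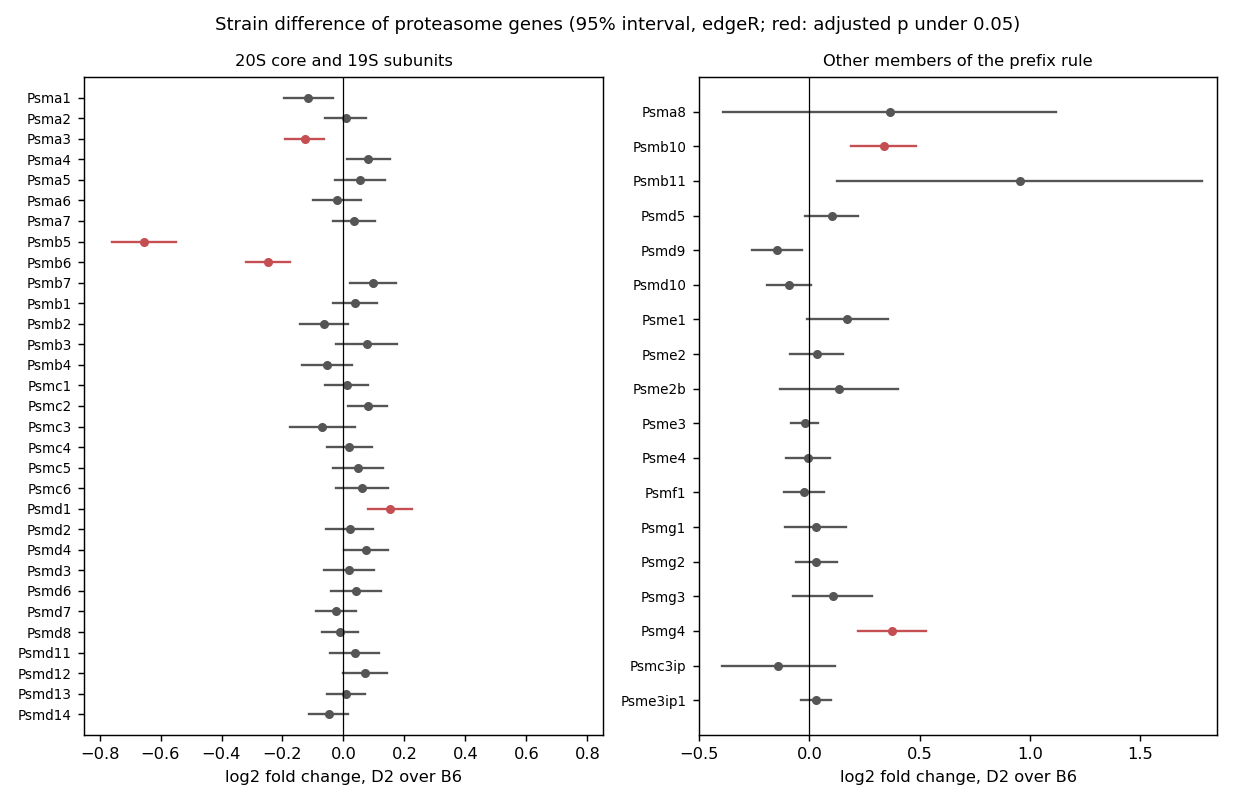
Log2 fold change (D2 over B6, horizontal axis) of each of the 49 proteasome genes, as a point with its 95% interval from the edgeR fit, with core and 19S subunits on the left and the other genes on the right, on different scales. The 6 genes in red passed an adjusted p of 0.05, most points lie close to 0, and the wide intervals belong to Psma8 and Psmb11, which had few reads.

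The alpha ring is formed by 7 subunits (Psma1 to Psma7), of which 1, Psma3, was called. Psma3 (ENSMUSG00000060073, chr12:71021279-71043849, plus strand) held 81.9, 78.6, 78.7, 81.1 and 76.9 CPM in B6 replicates 1 to 5 and 74.5, 72.4, 70.9, 73.1 and 73.0 in D2. Every D2 mouse was below every B6 mouse, but the lowest B6 and the highest D2 value were close. The log2 fold change was -0.13 (SE 0.03, edgeR adjusted p = 8.35e-03), the level in D2 having dropped by 8.43%. Without B6 replicates 3 and 5 it was -0.15. With total counts in place of TMM normalization it was -0.10 and was not called (edgeR adjusted p = 0.0759). Psma3 shares 367 exonic bases with the antisense RNA 3110056K07Rik, which was itself lower in D2 (log2 fold change -0.23, edgeR adjusted p = 0.0358), and whether the counting used strand is not given in the sources used here. The other 6 alpha genes had log2 fold changes from -0.12 (Psma1) to 0.08 (Psma4). Psma1 fell just outside the threshold (edgeR adjusted p = 0.0506) and was called under 11 of 22 alternatives.

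Psmb5 encodes the subunit with the chymotrypsin-like active site, the main target of bortezomib. Its own row, without the reads of Gm3375, held 31.9, 33.2, 35.6, 33.8 and 38.3 CPM in B6 and 22.5, 22.6, 21.6, 21.4 and 21.7 in D2. The strains were far apart, and the D2 mice lay close together. Means were 34.6 ± 2.45 for B6 and 21.97 ± 0.53 for D2 (SD, n = 5 each), a log2 fold change of -0.65 (SE 0.05, edgeR adjusted p = 7.27e-07). Without B6 replicates 3 and 5 it was -0.59. The direction turned when the reads of the copy were added, to 0.22.

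The row of the copy moved the other way. Gm3375 held 41, 10, 23, 101 and 35 reads in the B6 libraries and 2198, 1918, 2343, 2074 and 2027 in the D2 libraries. Reads on the copy were scarce in B6 and almost as many as on Psmb5 itself in D2. On the scale of CPM the means were 0.41 ± 0.35 and 18.7 ± 1.19 (SD, n = 5 each), with a log2 fold change of 5.52 (SE 0.36, edgeR adjusted p = 2.32e-07). The copy took 1.17% ± 1.0 of the reads of both rows in B6 and 46.01% ± 1.91 in D2 (SD, n = 5 each).

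Summed over both rows, the direction of the strain difference turned. The summed level was 32.3, 33.3, 35.8, 34.8 and 38.6 CPM in B6 and 41.1, 39.9, 42.1, 39.5 and 40.9 in D2. Every D2 mouse was now above every B6 mouse. The log2 fold change of the sum was 0.22 (SE 0.05, edgeR adjusted p = 4.9e-03), and the exact two-sided permutation p was 0.0079, the smallest that 5 against 5 mice can give. The sum is higher in D2 and the row of Psmb5 alone is lower, so the direction of Psmb5 in D2 is not determined by these counts. Whether the D2 reads on Gm3375 came from the copy or from Psmb5 was not tested, since the table holds no reads by position.

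**Figure D2:**
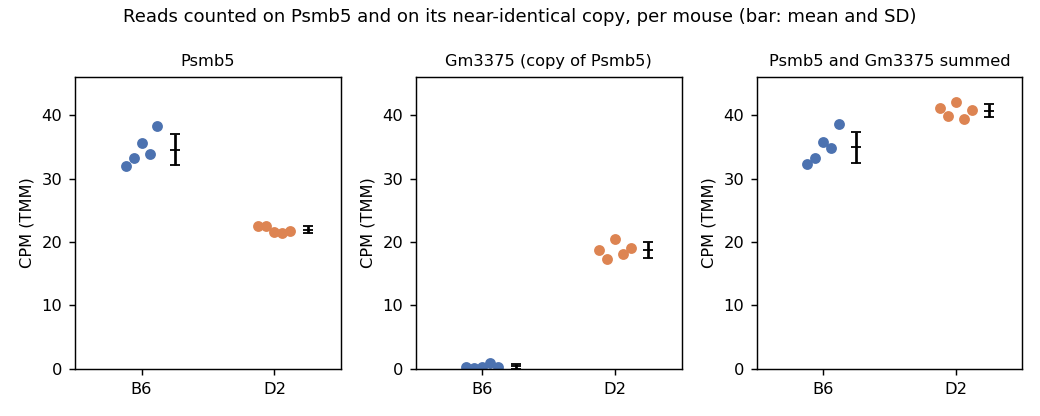
CPM (TMM, vertical axis from 0) counted on Psmb5, on its copy Gm3375 and on both summed, with 1 point per mouse and the mean and SD beside them. D2 lies below B6 for Psmb5, near 18.7 against 0.41 for Gm3375, and above B6 for the sum.

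Psmb6 encodes the subunit with the caspase-like active site. Psmb6 (ENSMUSG00000018286, chr11:70416183-70418684, plus strand) held 65.3, 67.6, 61.9, 65.0 and 63.0 CPM in B6 and 54.6, 56.0, 52.9, 52.8 and 55.4 in D2. All D2 mice were below all B6 mice, with a clear gap. The log2 fold change was -0.25 (SE 0.03, edgeR adjusted p = 1.60e-04), the level in D2 having dropped by 15.8%, and it was -0.28 without B6 replicates 3 and 5. No other stretch of the B6 genome was found to match at least 50% of its transcript with at least 95% identity. Its annotated pseudogenes Psmb6-ps and Psmb6-ps2 had no row in the count table. Psmb7, with the trypsin-like active site, had a log2 fold change of 0.10 (95% interval 0.02 to 0.17, edgeR adjusted p = 0.0811). Psmb7 shares 2817 exonic bases with Nek6 on the opposite strand, which was lower in D2 (log2 fold change -0.21, edgeR adjusted p = 0.0103). The 4 beta subunits without an active site (Psmb1, Psmb2, Psmb3 and Psmb4) had log2 fold changes between -0.06 (Psmb2) and 0.08 (Psmb3), and none was called.

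Psmb10 encodes the inducible subunit that takes the place of Psmb7 in the immunoproteasome, the form that interferon gamma induces. Psmb10 (ENSMUSG00000031897, chr8:106662362-106665077, minus strand) held 12.3, 12.9, 12.9, 11.7 and 12.5 CPM in B6 and 18.2, 13.96, 16.1, 14.7 and 15.7 in D2. The D2 mice were all higher and more spread out. The log2 fold change was 0.34 (SE 0.07, edgeR adjusted p = 3.32e-03), or 26.2% higher in D2, and 0.35 without B6 replicates 3 and 5. For each 100 reads of Psmb7 there were 17.5 ± 0.93 of Psmb10 in B6 and 20.6 ± 1.78 in D2 (SD, n = 5 each), with ranges of 16.0 to 18.5 and 18.8 to 23.3 that did not overlap. This ratio is of reads, not of molecules, since the transcripts differ in length. Of the tissue-restricted core subunits, Psmb11 of the thymus had 4 to 12 reads per library in B6 and 7 to 21 in D2, and Psma8 of the testis had 8 to 26 and 12 to 41. Their log2 fold changes were 0.95 (95% interval 0.13 to 1.78, edgeR adjusted p = 0.111) and 0.36 (95% interval -0.39 to 1.12, edgeR adjusted p = 0.556). Neither was called in the fit reported, and both intervals were wide. Psmb11 was called when B6 replicate 5 or D2 replicate 1 was left out.

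**Figure D3:**
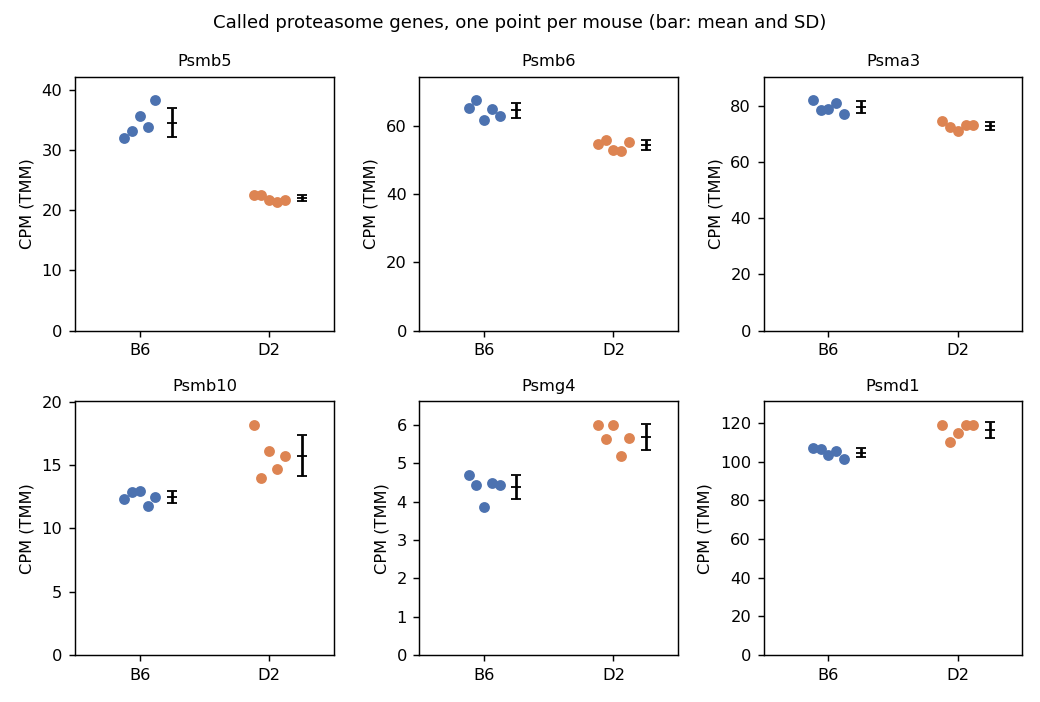
CPM (TMM, vertical axes from 0, a different scale in each panel) of the 6 called proteasome genes, with 1 point per mouse and the mean and SD beside them. In each panel the B6 and D2 points do not overlap. The Psmb5 panel leaves out the reads of Gm3375, with which D2 lay above B6 (39.45 and more against 38.59 and less).

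In the 19S particle, 1 of 17 subunits was called, Psmd1, which encodes the large scaffold of the base. Psmd1 (ENSMUSG00000026229, chr1:85992097-86070048, plus strand) held 106.9, 106.3, 103.2, 105.6 and 101.2 CPM in B6 and 119.0, 109.9, 114.9, 118.9 and 119.2 in D2. The D2 mice were all higher, and D2 replicate 2 was the nearest to the B6 range. The log2 fold change was 0.15 (SE 0.03, edgeR adjusted p = 4.96e-03), or 11.2% higher in D2, and 0.13 without B6 replicates 3 and 5 (edgeR adjusted p = 0.0252). The 6 ATPases (Psmc1 to Psmc6), which unfold the substrate, lay between -0.07 (Psmc3) and 0.08 (Psmc2, edgeR adjusted p = 0.0855) on the log2 scale. The other subunits of the base counted here, Psmd2 and the ubiquitin receptor Psmd4, had log2 fold changes of 0.02 and 0.07. The 8 lid subunits ran from -0.05 (Psmd14, the deubiquitinase that removes the tag) to 0.07 (Psmd12). Psmd12 did not overlap between strains, with at most 56.66 CPM in B6 and at least 56.74 in D2. Its exact permutation p of 0.0079 is that of any gene without overlap. It was not called by edgeR (adjusted p = 0.175).

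The chaperones that assemble the 19S base showed no called gene among 3. Psmd9 had a log2 fold change of -0.15 (95% interval -0.26 to -0.03, edgeR adjusted p = 0.0711), Psmd10 of -0.09 and Psmd5 of 0.10. Of the 4 chaperones that assemble the core, Psmg4 was called. Psmg4 (ENSMUSG00000071451, chr13:34346937-34362166, plus strand) held 4.71, 4.44, 3.86, 4.49 and 4.44 CPM in B6 and 6.01, 5.63, 5.99, 5.19 and 5.66 in D2. All D2 mice were higher, on 364 to 708 reads per library. The log2 fold change was 0.38 (SE 0.07, edgeR adjusted p = 2.13e-03), or 29.7% higher in D2, and 0.32 without B6 replicates 3 and 5. Psmg1, Psmg2 and Psmg3 had log2 fold changes of 0.03, 0.03 and 0.11, and the test of whether Psmg4 differed from them was not made.

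None of the 5 activator genes was called in the fit reported. Psme1 was called only with the level of the cortex markers as a covariate. It was at 20.31 and 23.65 CPM in B6 replicates 3 and 5, and 27.45 to 29.01 in the other B6 mice. Psme1 and Psme2, which form the interferon-inducible cap, had log2 fold changes of 0.17 (95% interval -0.01 to 0.36, edgeR adjusted p = 0.206) and 0.03. Psme2b is 99.37% identical to Psme2 over the matched bases and held 75 to 110 reads per library, so the split of reads between them is uncertain. Psme3, the cap of the nucleus, and Psme4 had log2 fold changes of -0.02 and -0.01. The gene of the inhibitor PI31, Psmf1, had a log2 fold change of -0.02 (95% interval -0.11 to 0.07). Of the genes that share only the prefix, Psmc3ip had -0.14 and Psme3ip1 had 0.03.

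Copies were also searched for the other proteasome genes. In all, 9 of the 49 had at least 1 other stretch of the B6 genome with at least 95% identity over at least 50% of the canonical transcript, 14 stretches in total. Apart from Gm3375 and the pair of Psme2 and Psme2b, the counted copies held at most 51 reads in any library (Gm6542, a copy of Psma4). Adding the reads of copies to their proteasome gene changed the direction of Psmb5 and the call of no other gene. The annotated pseudogenes Psmb5-ps, Psmb6-ps, Psmb6-ps2 and Psmb7-ps2 were not among the stretches found. Of them only Psmb7-ps2 had a row, and its reads were not added. In addition, 21 of the 49 shared exonic bases with a counted gene on the opposite strand, and 6 of the 24 opposite genes were themselves called (25%, against 18.3% of all genes).

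Within a strain, levels per length differed more between subunits than between strains. Per kb of the canonical transcript, the 14 constitutive core genes in B6 ran from 10.5 CPM (Psmb2) to 70.0 (Psma7), with a median of 36.1 in B6 and 35.0 in D2. The 17 subunits of the 19S particle ran from 21.0 (Psmd11) to 71.3 (Psmc5) in B6, with medians of 38.4 and 38.7. This scale takes 1 transcript length per gene, and the length in use in the NAc may differ. The catalytic subunits were at 62.3 and 52.5 for Psmb6, 61.5 and 65.8 for Psmb7 and 20.3 and 12.9 for the row of Psmb5 (B6 and D2, CPM per kb). Summed with Gm3375 and taken over the length of Psmb5, the last pair was 20.6 and 23.9. Psmb6 was level with Psmb7 in B6 and below it in D2.

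**Figure D4:**
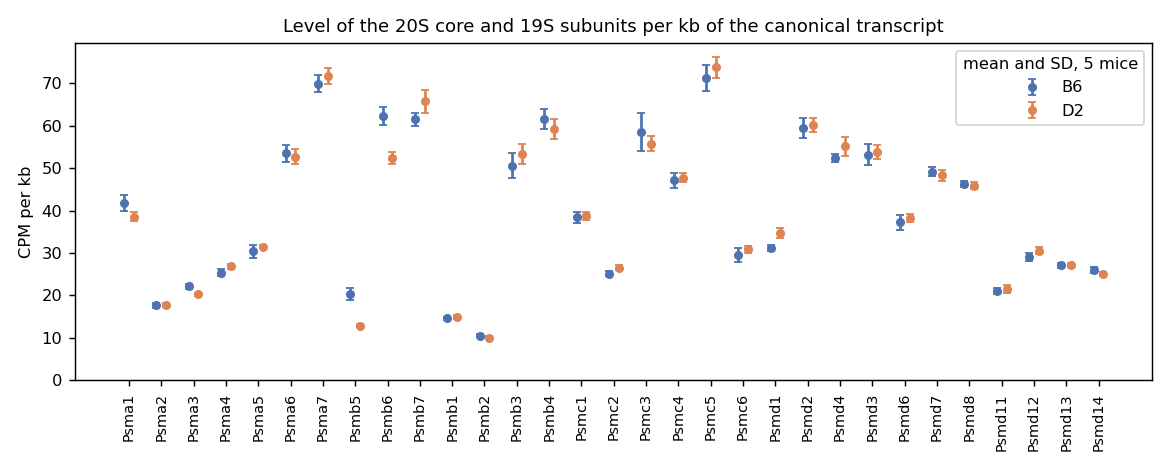
Mean level in CPM per kb of the canonical transcript (vertical axis from 0) of each constitutive 20S core and 19S subunit gene, with the SD over 5 mice, for B6 and D2 side by side. The genes spread from about 10.1 to 73.8, while the strains lie nearly on top of each other except for a few genes such as Psmb6 and Psmb5, the latter plotted without the reads of Gm3375.

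Summed over genes, the strains were close. The 14 core genes summed to 834 ± 16.7 CPM in B6 and 811 ± 16.7 in D2 (SD, n = 5 each), which is -2.75% in D2. With the reads of Gm3375 included the difference was -0.54%. The 17 genes of the 19S particle summed to 1411 ± 24.8 and 1440 ± 24.3, a difference of 2.05%. Over all 49 genes the sums were 2645 ± 35.4 and 2659 ± 43.2, a difference of 0.51% that is smaller than the spread between mice. No test was made on these sums.

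Genes that work with the proteasome but lack the prefix were also examined. Of the 26 such genes reported on here, 25 were measured (Paaf1 was not analysed here), and 3 were called (12.0%, against 18.3% of all genes), namely Txnl1, Ddi2 and Rad23b. The strains did not overlap for 2 of the 25 (8.0%, against 16.0%). Ubb, which encodes ubiquitin, held 601 to 676 CPM in B6 and 591 to 623 in D2, with a log2 fold change of -0.07 (95% interval -0.16 to 0.01), and was not called. The enzymes that activate ubiquitin, Uba1 and Uba6, had log2 fold changes of -0.04 and 0.12 and were not called either.

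Txnl1, a thioredoxin-like protein bound to the 19S particle, was higher in D2 (log2 fold change 0.20, edgeR adjusted p = 0.013), and was not called without B6 replicates 3 and 5 (0.14, edgeR adjusted p = 0.0641). The shuttle proteins, which carry tagged proteins to the proteasome, moved in both directions. Ddi2 was higher in D2 (log2 fold change 0.13, edgeR adjusted p = 0.0163, and 0.14 without B6 replicates 3 and 5), and lost the call without B6 replicate 3 (edgeR adjusted p = 0.0522) or D2 replicate 3 (edgeR adjusted p = 0.0557). Rad23b was lower (log2 fold change -0.11, edgeR adjusted p = 0.0362), and lost it in 7 of the 10 fits that left out 1 mouse (B6 replicates 2, 3 and 5 and D2 replicates 1, 2, 3 and 5). Without both B6 replicates 3 and 5 it was -0.09 (edgeR adjusted p = 0.0992). Nfe2l1, which controls subunit genes, had a log2 fold change of 0.03 (95% interval -0.05 to 0.12), and Nfe2l2 one of -0.07. The subunits without the prefix, Adrm1 and Sem1, had 0.00 and 0.04. Adrm1 has a counted copy, Adrm1b, with 99.78% identity over 87.1% of its transcript. Another partner, Vcp, has the counted copy Vcp-rs (99.45% over 83.8%). The reads of these copies were not added to the partner genes.

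**Figure D5:**
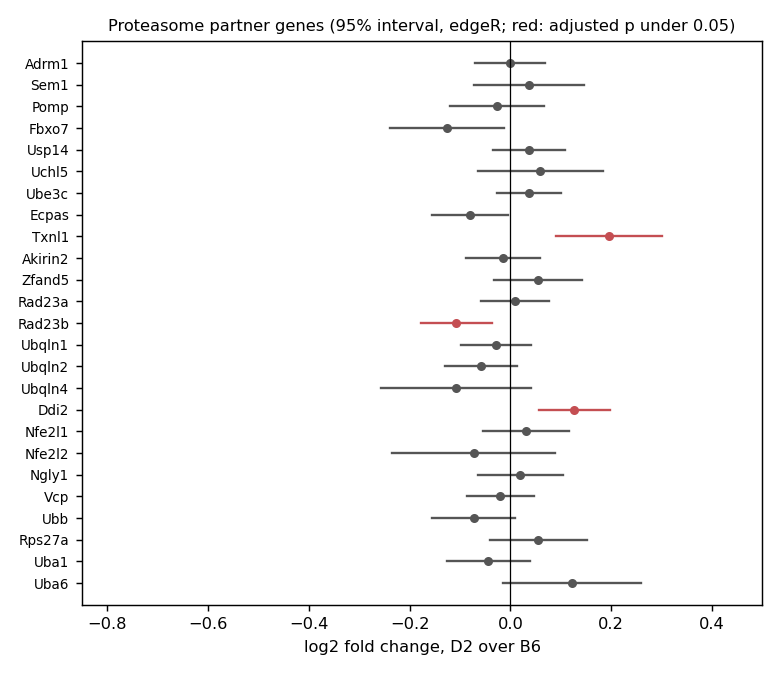
Log2 fold change (D2 over B6, horizontal axis) of the 25 measured partner genes, as points with 95% intervals from the edgeR fit, with the 3 that passed an adjusted p of 0.05 in red. Txnl1 and Ddi2 lie to the right of 0, near 0.20 and 0.13, and Rad23b to the left, near -0.11.

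The start sites of Psmb5 and Psmb6 both lie beside the letters TGACNNNGC, the core of the antioxidant response element, which Nfe2l1 and Nfe2l2 can bind. They are shown because both genes are catalytic subunits that were called, Psmb6 lower in D2 and Psmb5 in a direction that turned with the reads of Gm3375, with the matching letters in capitals and read along the strand of the gene.
Psmb5, chr14:54855481-54855509, minus strand, match from -18: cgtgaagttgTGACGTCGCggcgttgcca
Psmb6, chr11:70416164-70416192, plus strand, match from -9: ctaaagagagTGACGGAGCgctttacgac
Positions are counted from the start site of the canonical transcript on GRCm39. On either strand, the letters were found between 250 bases before and 50 bases after the start site in 8 of the 49 proteasome genes (16.3%) and in 2293 of 17318 protein-coding genes of the table (13.2%). The other 6 were Psmb2, Psmc6, Psmd7, Psmd9, Psmd12 and Psmg2, and none of these was called. A match to these letters is a description of the reference sequence and says nothing of binding in the NAc.

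Genes near the called proteasome genes were counted as well. Within 500 kb, 10 of 28 neighbours of Psmb6 with at least 1 CPM were called, 8 of them higher and 2 lower in D2. Around Psmb5, 10 of 34 neighbours were called, 3 of them higher and 7 lower. The counts were 4 of 9 around Psmg4 (1 higher, 3 lower) and 4 of 28 around Psmb10 (2 higher, 2 lower). They were 4 of 15 around Psmd1 (all 4 lower) and 1 of 7 around Psma3 (lower). The share over all such genes was 23.8%. Over all genes of the table, 8.5% were called higher and 9.83% lower. A link between the neighbours and the proteasome genes was not tested.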

How the data were processed

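The deposited values are raw counts of reads per gene. Per the labels and the methods, the authors used fastp for trimming, STAR 2.7.10b for alignment to GRCm39, SAMtools 1.6 for sorting and featureCounts for counting, and left out genes whose median was 0. The library kit was stranded, but the strand and multi-mapping settings of the counting are not given in the sources used here.

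Counts of the 10 mice were fitted with edgeR 4.0.16 in R 4.3.3 by a two-sided quasi-likelihood test of strain after TMM normalization, and p-values were adjusted by Benjamini-Hochberg across the 29883 genes. Levels are TMM-scaled CPM. Single values were compared with exact permutation tests over 252 assignments. Symbols, overlaps and start sites came from a GRCm39 annotation that held 29519 of the genes. Copies were searched by aligning the canonical transcripts to the GRCm39 genome with minimap2 2.31. The fit was also run on simulated counts with changes planted in 200 genes. Its outcome is not reported here, and no result above rests on it. Values were given for every called proteasome and partner gene, and for the others by role. Beyond the 26 partner genes counted, 2 more are not reported here and enter no partner count. The members and lists were chosen with earlier results of these data known, and the search for copies and the fit without both cortex-rich B6 libraries were added after the data were seen. Other normalizations, filters, covariates, DESeq2 1.42.0 and leaving out each mouse were tried as alternatives.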

Additional observations from a re-analysis of the deposited data

Results flagged for a closer look

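Of 100 groups of 5 mice examined (49 genes and their sum in each strain), 4 held a mouse that stood apart from the other 4 of its strain by Dixon's criterion, and chance flags about 1 in 20 groups. Psmb11 was at 0.114 CPM in B6 replicate 5, against 0.0425 to 0.0594 in the other B6 mice, on at most 12 reads. Psmc2 was at 73.8 in D2 replicate 4, against 77.3 to 78.3 in the other D2 mice. Psmd12 was at 52.3 in B6 replicate 3, against 55.8 to 56.7 in the other B6 mice. Psme3 was at 94.8 in D2 replicate 1, against 91.3 to 92.2 in the other D2 mice. None of these 4 genes was called between the strains.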

How the results depend on the processing

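Psmb5, Psmb6, Psmg4, Psmb10 and Psmd1 were called under each of the 22 alternatives, and Psma3 under all but total counts. Psmb5 turned from -0.65 to 0.22 when the reads of Gm3375 were added, because the copy's reads are then part of the value. The number of proteasome genes called was 12 with the level of the cortex markers as a covariate (7 higher, 5 lower). With that covariate, 7748 of all 29883 genes were called, against 5478 in the fit reported. The 12 were the main 6 with Psma1, Psma4, Psmb7, Psmc3, Psmd5 and Psme1. The number was 9 with DESeq2 (6208 over all genes) and 9 without B6 replicates 3 and 5 (5745 over all genes). It was 6 to 8 with 1 mouse left out. With total counts 5 were higher and 2 lower (3012 and 2468 over all genes). The number of partner genes called was 1 without B6 replicates 3 and 5, and 1 to 3 with 1 mouse left out (1 without B6 replicate 3 or D2 replicate 3). At an adjusted p under 0.01 it was 0 by edgeR, where 5 had an unadjusted p under 0.05, and DESeq2 called 3 at an adjusted p under 0.05. The difference of the summed level was 2.72% with total counts and 0.0853% to 1.03% with 1 mouse left out. Over all genes, 3415 were called at an adjusted p under 0.01, 4636 to 5676 with 1 mouse left out, and 5478 in the fit reported. Causes of these changes were not tested.

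Deviations of same-numbered mice from their strain mean correlated at 0.37, -0.40, 0.37, 0.03 and -0.30 for replicates 1 to 5. The D2 mouse that correlated best with a B6 mouse bore the same number only for replicates 1 and 3. These values do not settle whether the replicate numbers pair the mice. With the replicate block, the same 6 proteasome genes were called, as were 3 partner genes that did not include Rad23b (edgeR adjusted p = 0.0849).

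The table has 1 count each for Psmb5 and Gm3375 and no read positions, which limits what can be said of Psmb5, and genes under about 100 reads (Psma8, Psmb11 and Psme2b) had intervals too wide to place.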
